A study of Mus musculus with 2 samples.

Results

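The genes described here are 9 members of polyamine metabolism, chosen by name from 18497 annotated genes with at least 1 read: the antizymes Oaz1 and Oaz2, ornithine decarboxylase Odc1, the antizyme inhibitors Azin1 and Azin2, S-adenosylmethionine decarboxylase Amd1, spermidine synthase Srm, spermine synthase Sms and spermidine/spermine acetyltransferase Sat1. All 9 had reads in both libraries. The assay was RNA sequencing with long reads, each of which can follow a cDNA from end to end. The tissue was a layer of hippocampus from female B6CASTF1/J mice aged 2 months, the first-generation hybrid of C57BL/6J and CAST/EiJ, with no treatment or allele named in the labels. There was 1 group with 2 libraries, each made from 2 µg of RNA and numbered as biological replicates 1 and 2. They carry separate biosample entries and 1 shared donor entry, so the spread between them may be technical.

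Polyamines are small positively charged molecules made from ornithine. Odc1 makes putrescine, Amd1 supplies the aminopropyl donor, and Srm and Sms use it to build spermidine and spermine, while Sat1 acetylates both for breakdown or export. Antizymes bind the Odc1 protein and send it to the proteasome, and Azin1 and Azin2 resemble Odc1, lack its activity and bind antizymes in its place. Antizyme mRNA is known for an unusual reading frame: the ribosome meets a stop codon early, and full-length protein needs a shift by 1 base at that codon, which polyamines favour.

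Oaz1 and Oaz2 are shown first, because the stop codon at this shift is where the annotation and the reads parted. Both windows are read 5′ to 3′ on the plus strand from GENCODE M21 transcripts on mm10, and capitals mark the first stop codon in frame with the annotated start. The Oaz1 window lies at chr10:80828265-80828325 and the Oaz2 window at chr9:65686242-65686302, each with 30 bases on either side of the first base of that stop.
Oaz1: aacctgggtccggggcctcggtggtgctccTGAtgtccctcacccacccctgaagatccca
Oaz2: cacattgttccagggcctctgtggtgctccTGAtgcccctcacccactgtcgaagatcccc
The windows shared 49 of 61 bases, with an unbroken run of 15 identical bases that holds the whole stop codon. These are reference bases and not read sequence, since the deposited files hold model structures and counts only.

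Reading from the annotated Oaz1 start, 68 codons came before TGA at 80828295 to 80828297 on chromosome 10. With the single base at 80828295 left out, the frame ran through 227 codons to the annotated TAG at 80829002. In Oaz2, 32 codons came before TGA at 65686272 to 65686274 on chromosome 9. Leaving out the base at 65686272 gave 189 codons, ending at the annotated TAA at 65689223. In both genes the base left out is the T of the stop codon. It was taken from the GENCODE M21 models, so the codon counts equal those of the annotated coding sequence by construction.

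GENCODE M21 writes this shift into its models as a gap inside the exon. Of 7 Oaz1 models, Oaz1-202, Oaz1-203 and Oaz1-207 carry a gap of 1 base and Oaz1-201 a gap of 4 bases that ends at the same base. Oaz1-205 and Oaz1-206 cross the place without a gap. Of 7 Oaz2 models, Oaz2-204 and Oaz2-206 have the 1-base gap, Oaz2-201 the 4-base gap, and Oaz2-203, Oaz2-205 and Oaz2-207 none.

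The reads ran through the frameshift site without a gap in both libraries. Full-splice reads are those deposited as an annotated chain, an unannotated combination of annotated splice sites, or a chain with an unannotated splice site. Such a model need not reach both ends of the gene. Among full-splice reads, 636 Oaz1 reads in replicate 1 and 545 in replicate 2 crossed the place, and 0 had either gap. A count of 0 allows shares of up to 0.472% and 0.550%. For Oaz2, 245 and 207 full-splice reads crossed and 0 had a gap, which allows up to 1.22% and 1.45%. Counting all models that span it left the gap count at 0, with 643 and 552 Oaz1 reads across. The shortest intron in any unannotated or incomplete model with reads was 33 bases, so whether the deposited processing could have kept a gap of 1 to 4 bases was not tested.

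Nearly all antizyme reads were deposited outside the annotated class. TALON, the tool named in the structure files, gave 1 of 648 Oaz1 reads in replicate 1 and 0 of 553 in replicate 2 to an annotated chain, and called 637 and 546 reads an unannotated combination of annotated splice sites. Of the Oaz2 reads, 1 of 255 and 1 of 216 were deposited as annotated, and 240 and 198 as an unannotated combination. Over all annotated genes the annotated class held 65.5% ± 0.418 of reads (mean ± SD of the libraries, n = 2, here and in every ± value) and the unannotated combination 7.41% ± 0.0414.

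Closing annotated gaps shorter than 30 bases moved the antizymes onto annotated chains. Oaz1 went from 0.0782% ± 0.111 to 97.5% ± 0.153 of full-splice reads on an annotated chain, with 624 of 639 reads in replicate 1 and 532 of 546 in replicate 2. Oaz2 went from 0.446% ± 0.0530 to 92.7% ± 0.701, with 226 of 245 and 193 of 207 reads. The shares of the 7 other genes did not move when gaps were closed.

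**Figure D1:**
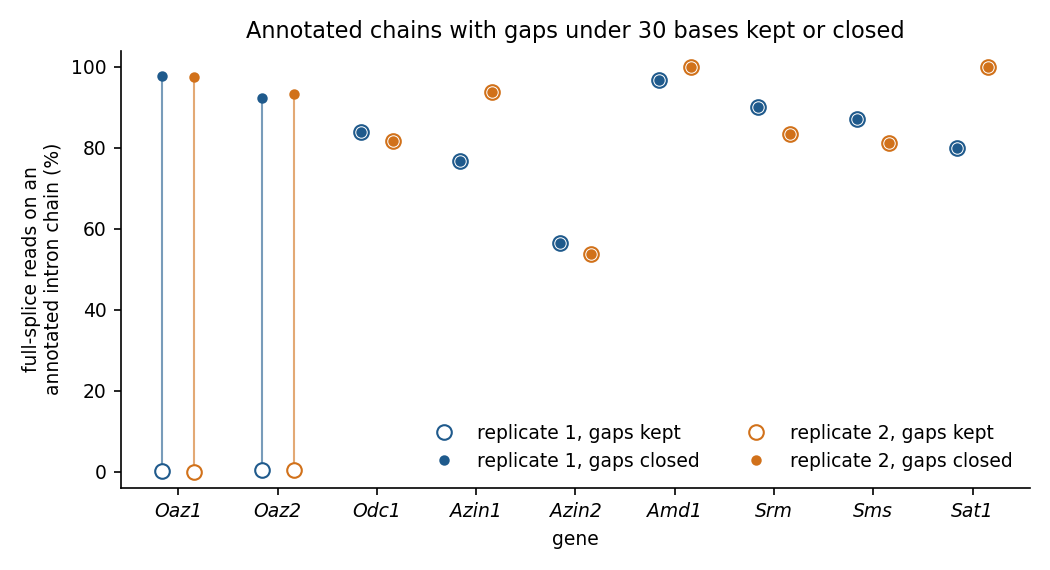
Share of full-splice reads (vertical axis, percent) that lie on an annotated intron chain, by gene, with annotated gaps under 30 bases kept (open circles) or closed (filled circles); blue is replicate 1 and orange replicate 2. Oaz1 and Oaz2 go from under 1% to over 90%, and each other gene has its open and filled circles at the same place.

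The same step touched few other genes. A gap under 30 bases occurs in models of 285 annotated genes, 120 of them protein-coding, and a 1-base gap in 78. Over the 4612 genes where both libraries gave 20 or more full-splice reads, the leading intron chain, the one with the highest mean share, was annotated in 4312 with gaps kept and 4315 with gaps closed. The 3 genes that differ are Oaz1, Oaz2 and Nadk2, a mitochondrial NAD kinase that is no polyamine gene and was named after its values were seen, with 48 and 48 reads on its leading chain.

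Antizyme mRNA stood well above the mRNA of the enzyme that antizyme binds. Oaz1 had 648 reads in replicate 1 and 553 in replicate 2, which is 763 ± 29.8 CPM, reads per 1000000 not on spike-ins. Oaz2 had 255 and 216 reads (299 ± 13.3 CPM). Oaz1 ranked 94 and Oaz2 430 by mean level among the 18497 genes. One long read counts one cDNA whatever its length, so CPM compares genes without a length correction. How recovery depended on length was not measured, and the leading models ranged from 1075 bases for Oaz1 to 4871 for Azin1.

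Odc1, the first enzyme of the pathway (chromosome 12, 17544794 to 17551505, plus strand), had 37 reads in replicate 1 and 43 in replicate 2 (51.2 ± 9.13 CPM). Oaz1 therefore had 17.5 and 12.9 reads per Odc1 read, a ratio of 15.2 ± 3.29. The exact intervals of the 2 ratios, 12.6 to 25.1 and 9.42 to 18.0, overlap. Oaz1 and Oaz2 kept nearly the same proportion in both libraries, at 2.54 and 2.56 Oaz1 reads per Oaz2 read. Summed, the antizymes had 7.28 and 6.63 reads per read of Odc1, Azin1 and Azin2 together, and they took 74.1% ± 0.652 of the reads of all 9 genes.

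The antizyme inhibitors were close to Odc1 in level. Azin1 (chromosome 15, 38487427 to 38519266, minus strand) had 51 reads in replicate 1 and 41 in replicate 2 (58.3 ± 4.74 CPM). Azin2 (chromosome 4, 128930233 to 128962442, minus strand) had 36 and 32 reads (43.2 ± 0.444 CPM). Odc1 lay between them by mean, and its range overlapped that of Azin1. With genomic models left out, Odc1 stood at 54.2 CPM and Azin1 at 53.7 CPM, so Odc1 was then above both.

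Among the remaining enzymes, Srm (chromosome 4, 148591503 to 148594993, plus strand) was highest, with 76 reads in replicate 1 and 63 in replicate 2 (88.2 ± 5.26 CPM). Sms (chromosome X, 157443855 to 157492287, minus strand) followed with 60 and 40 reads (63.1 ± 13.4 CPM). Amd1 (chromosome 10, 40287458 to 40302186, minus strand) had 36 and 29 reads (41.2 ± 3.29 CPM). The catabolic enzyme Sat1 (chromosome X, 155213132 to 155216449, minus strand) was the lowest of the 9, with 28 and 15 reads (27.0 ± 9.72 CPM), and it ranked 6254 among all genes. The median gene with a read in each library stood at 19.8 CPM.

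In order of mean level the genes were Oaz1, Oaz2, Srm, Sms, Azin1, Odc1, Azin2, Amd1 and Sat1. The ranges of the 2 libraries overlapped between Sms and Azin1, Azin1 and Odc1, and Azin2 and Amd1. The exact 95% counting intervals separated neighbours in both libraries only from Oaz1 to Oaz2 and from Oaz2 to Srm. From Srm down, each gene's interval overlapped its neighbour's in at least 1 library, so at this depth neighbouring places there are not resolved. Genes further apart could be separated: Srm lay above Azin2, Amd1 and Sat1, and Sms above Sat1, in both libraries. These intervals cover counting error only, because reads without molecular identifiers may repeat one molecule.

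**Figure D2:**
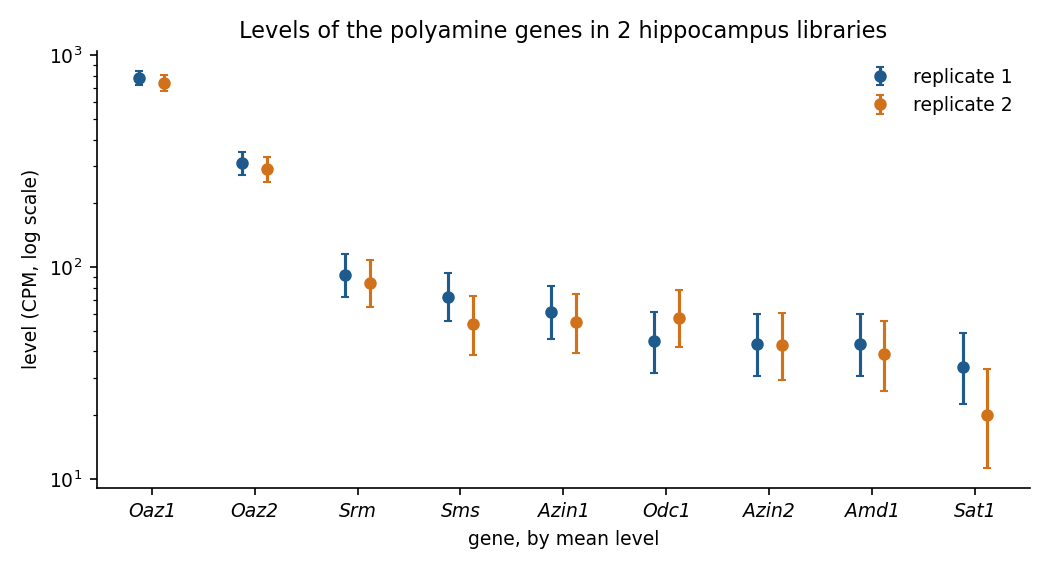
Level of each gene (vertical axis, CPM on a log scale) in replicate 1 (blue) and replicate 2 (orange), with exact 95% Clopper-Pearson intervals for counting error. Oaz1 (784 and 742 CPM) and Oaz2 (308 and 290 CPM) stand apart from the other 7 genes, whose intervals overlap between neighbours in at least 1 library.

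The 9 genes did not differ detectably between the libraries. In the two-sided exact binomial test of each gene's reads against the ratio of the library totals, 0 of 9 were called, beside 0.309% of the 9062 genes tested. A call needed a change of 2-fold or more and a p under 0.05 after Benjamini-Hochberg adjustment. By direction, 0.143% of all genes were called higher in replicate 1 and 0.166% higher in replicate 2, and 0.574% passed with no demand on the fold, against 0 members each. No member had an unadjusted p under 0.05, which 7.42% of all genes tested had. Replacing the library totals with TMM factors from edgeR or size factors from DESeq2 also called 0. The largest difference was that of Sat1, with 1.68 times the CPM in replicate 1, at an adjusted p of 0.827 in the exact binomial test. Sms was next with 1.35 times. By CPM 8 of 9 genes were higher in replicate 1, all but Odc1 (7 of 9 with full-splice models alone), with a median log2 ratio of -0.12 for replicate 2 over replicate 1 against 0.0081 over all genes tested, of which 49.1% were below 0. The test compares 2 libraries of 1 group and not conditions.

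The rest of the pathway was represented around them. Of 32 other genes of polyamine synthesis, breakdown, transport, hypusination and the methionine cycle, 25 had reads in each library and 7 had none. Of these, 18 had enough reads to test, and 0 were called in either direction, beside the same 0.309%, with a median log2 ratio of 0.045. Eif5a, the translation factor that carries hypusine made from spermidine, led with 366 and 277 reads (407 ± 50.4 CPM). Mat2a and Mat2b, catalytic and regulatory subunits of the enzyme that makes S-adenosylmethionine, stood at 230 ± 36.6 and 214 ± 15.6 CPM. Atp13a2, a lysosomal polyamine exporter, stood at 203 ± 20.2 CPM. Among the genes with no read were Oaz3, the testis antizyme, Satl1, Arg1 and Agmat. A count of 0 allows up to 3.63 CPM in replicate 1 and 4.02 CPM in replicate 2.

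Libraries held 836240 and 752291 reads, of which 826596 and 745492 were not on spike-ins, so 1 read was worth 1.21 and 1.34 CPM. The defining markers of neurons, astrocytes, oligodendrocytes, microglia and endothelium all had reads in both libraries. Hpca, the hippocampal calcium sensor, stood at 2191 ± 38.9 CPM. Of the 4 markers of choroid plexus, a tissue beside the hippocampus, Ttr had 271 reads in replicate 1 and 131 in replicate 2, Kl had 8 and 6, and Aqp1 and Otx2 had 0 in both. Ttr differed between the libraries beyond counting error, with an adjusted p of 1.29e-06 in the exact binomial test. Its log2 ratio of -0.897 for replicate 2 over replicate 1 fell short of the 2-fold demand for a call. The part of any cell type in the members' levels was not tested, and in bulk tissue fewer cells of a type and less RNA per cell cannot be told apart.

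Each gene's full-splice reads were grouped by intron chain to see how many forms it had. One chain led in every gene. The median share of the leading chain over the 9 genes, taken in each library and then averaged, was 84.3%. By each gene's mean share the median of the 9 was that of Odc1, 82.7%, near the 83.2% median of all 4612 genes. In the two-sided Fisher's exact test of the leading share between libraries, 0 of the 8 members with enough reads (20 or more full-splice in both) were called, beside 0.195% of all genes, and 0 had an unadjusted p under 0.05. Azin1 came closest with an exact p of 0.0574, which was 1 after Benjamini-Hochberg adjustment. Sat1 had too few reads for this test.

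By leading share of full-splice reads the antizymes came next after Amd1. Over all multi-exon models, incomplete ones included, the shares were 95.1% for Oaz1, 91.7% for Oaz2 and 91.3% for Amd1. Oaz1 had 612 of 639 full-splice reads in replicate 1 and 528 of 546 in replicate 2 on 1 chain of 4 introns (96.2% ± 0.657), at chromosome 10, 80826656 to 80829290. Oaz2 had 225 of 245 and 192 of 207 reads on its leading chain of 4 introns (92.3% ± 0.648), at chromosome 9, 65676548 to 65690300. With gaps closed these are the chains of Oaz1-201 and Oaz1-207, and of Oaz2-201 and Oaz2-206.

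The minor Oaz1 forms mostly moved an acceptor, the splice site where an exon begins. The last exon began 22 bases late in 11 and 9 full-splice reads (1.68% ± 0.0517). The exon with the frameshift site began 6 bases late in 10 and 4 reads (1.15% ± 0.589). Capitals mark the bases left out at the start of each exon, at chr10:80828871-80828900 and chr10:80828237-80828266.
Oaz1 last exon: CCGCCCTACTCCGAACCTTCAGctttcttg
Oaz1 frameshift exon: TTCTAGggttgcccttaattgctgtagtaa
With the frameshift base left out, the 22-base form reached a stop after 190 codons at 80828913, ahead of the annotated one. The 6-base form kept the annotated stop and gave 225 codons, 2 fewer than the leading chain. Both start sequences end their capitals in AG, the letters that close nearly all introns.

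Few reads lacked the frameshift site itself. The 146-base exon that holds it, 80828237 to 80828382, was skipped in 3 of 639 reads in replicate 1 and 1 of 546 in replicate 2 (0.326% ± 0.202). In that form the frame closed after 52 codons at 80828471. The 78-base intron after this exon was retained in 1 and 5 reads.

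The last Oaz1 intron coincides with a microRNA gene. Its 74 bases, 80828797 to 80828870, are the whole Mir1982 hairpin in RefSeq on GRCm38.p6. It was retained in 1 of 639 full-splice reads in replicate 1 and 2 of 546 in replicate 2 (0.261% ± 0.148). Counting incomplete models, 6 of 646 and 5 of 553 reads retained it, which is 0.916% ± 0.0174. A single read, in replicate 2, was assigned to Mir1982 itself. The mature forms, with the seed (bases 2 to 8) in capitals, are shown because they make up most of this intron.
mmu-miR-1982-5p: uUGGGAGGguccuggggagg
mmu-miR-1982-3p: uCUCACCCuauguucucccacag
The 3p form ends at 80828870, the last base of the intron. Small RNAs were not measured here.

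A pair of minor Oaz2 forms had the most reads. The exon with its frameshift site began 3 bases late in 10 and 6 reads (3.49% ± 0.837), at chr9:65686196-65686225, where the capitals are the bases left out.
Oaz2 frameshift exon: TAGtattttgccgttgagtaagtgtcccca
That form lost 1 codon, with 31 before the stop and 188 in all once the frameshift base was left out. An 86-base exon at 65688821 to 65688906 was skipped in 9 and 6 reads (3.30% ± 0.549), and in the main chain of this form, with 7 and 6 reads, the frame closed after 129 codons at 65689129. Over all multi-exon models, a rarer form retained the intron 65688907 to 65689094 in 1 and 2 reads. With the frameshift base left out, its frame closed after 182 codons at 65689014, ahead of the annotated stop. A further 9 and 6 unspliced reads reached 65691396 and 65691395, up to 1096 bases past the last annotated base of Oaz2. A single spliced read in replicate 1 ended 19982 bases past it.

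Odc1 was read mainly as its annotated 12-exon form. Odc1-201 held 26 of 31 full-splice reads in replicate 1 and 31 of 38 in replicate 2 (82.7% ± 1.62). An acceptor moved by 3 bases in 2 and 3 reads, ahead of the start codon, so the 461 codons stayed. Another moved by 2 bases in 2 and 1 reads and changed the frame, which closed after 359 codons.

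Azin1 gave 2 forms beside its main one. Azin1-201 held 29 of 43 full-splice reads in replicate 1 and 28 of 32 in replicate 2 (77.5% ± 14.2), the widest spread of a leading share among the 9 genes. An exon began 3 bases late in 8 and 2 reads (12.4% ± 8.74). It starts at chr15:38492330-38492359 on the minus strand, and the late acceptor is annotated in Azin1-205.
Azin1 exon: TAGaaaaaaatgggagtgatgagccagcct
The shorter form had 447 codons against 448. A 160-base exon ahead of the start codon, at 38507187 to 38507346, was included in 5 of 43 and 2 of 32 reads, and its main chain is annotated as Azin1-203. The counting intervals of the 2 libraries overlapped for both forms.

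Azin2 was the least uniform gene. Its leading chain, Azin2-201, took 13 of 23 full-splice reads in replicate 1 and 12 of 26 in replicate 2 (51.3% ± 7.33). The 23 and 26 full-splice reads fell on 19 chains, of which 4 occurred in both libraries. An unannotated chain of 8 exons came next, with 3 and 1 reads. A pair of exons was skipped together in 4 of 22 and 4 of 25 reads across them, and the 96-base first intron was retained in 3 and 4. Counting incomplete models, that intron was retained in 13 of 33 reads in replicate 1 and 7 of 28 in replicate 2 (32.2% ± 10.2). The intron lies ahead of the start codon, and the form that retained it with no other change, 7 and 3 reads, kept the 459 codons. The 8-exon chain also retained it and skipped this pair of exons. The annotated start codon is not among its bases, so its frame could not be followed from there.

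Amd1 showed no alternative exon use in its full-splice reads, which were few. For a count of 0 in the 24 reads of replicate 2, the exact upper bound was 14.2%. Amd1-201, with 8 exons, held 30 of 31 full-splice reads in replicate 1 and 24 of 24 in replicate 2 (98.4% ± 2.28), and the remaining read had 1 acceptor moved by 2 bases. Its near copy Amd2, annotated with 1 exon at chromosome 10, 35708675 to 35711892, had 31 and 28 reads (37.5 ± 0.0395 CPM) against 41.2 ± 3.29 CPM for Amd1. The split between the genes follows splicing: 32 and 27 Amd1 reads had introns, and every Amd2 read was unspliced. The sources used here do not say how counting placed unspliced reads between the copies, so 4 and 2 unspliced Amd1 reads and all Amd2 reads are uncertain.

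Sms and Sat1 each retained an intron that broke the frame. Sms-201 held 46 of 54 full-splice reads in replicate 1 and 23 of 32 in replicate 2 (78.5% ± 9.41). Its 759-base intron at 157460417 to 157461175 on chromosome X was retained in 4 and 6 reads (13.1% ± 8.02), and in the chains followed the frame closed after 225 codons, against 366 in Sms-201. Of these reads, 1 and 3 are the annotated short form Sms-203.

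Sat1 is known for a poison exon, an exon with a stop codon whose inclusion marks the mRNA for decay. Sat1-201 held 20 of 25 full-splice reads in replicate 1 and 12 of 15 in replicate 2, 80.0% in both. The 110-base exon, 155215121 to 155215230 on chromosome X and annotated in Sat1-207, was included in 1 of 25 and 2 of 14 reads across it (9.14% ± 7.27). With so few reads the exact intervals ran from 0.101% to 20.4% and from 1.78% to 42.8%. Its first 30 bases on the minus strand, chrX:155215201-155215230, are shown with the first stop codon in frame in capitals.
Sat1 added exon: gttacagtctcTAGcttcgccatgtacatg
Including the exon closed the frame after 71 codons, against 171 in Sat1-201. The 1466-base intron that contains this exon was retained in 4 of 25 reads in replicate 1 and 0 of 14 in replicate 2, which closed the frame after 70 codons. All 4 retained reads were thus in replicate 1, and the upper interval bound in replicate 2 was 23.2%.

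**Figure D3:**
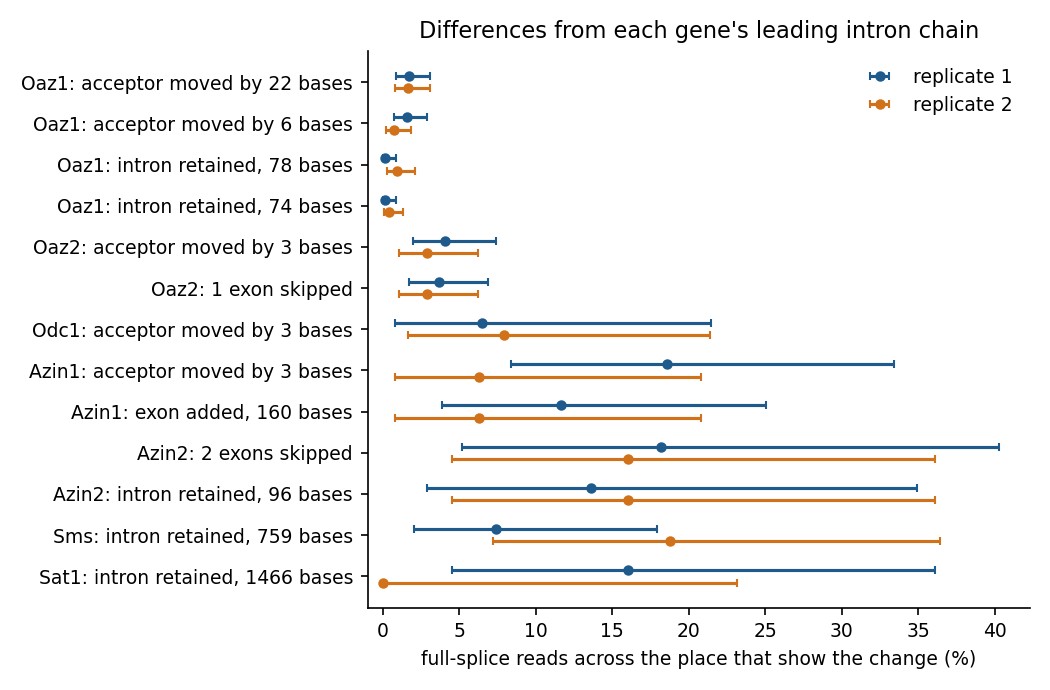
Share of full-splice reads across each place that differ from the gene's leading intron chain (horizontal axis, percent), for changes with at least 5 reads, in replicate 1 (blue) and replicate 2 (orange), with exact 95% Clopper-Pearson intervals. Oaz1 changes stay under 2% and Oaz2 changes under 5%, and in the less sequenced genes the intervals of the 2 libraries overlap.

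Srm reads ran into a neighbouring gene. Srm-201, with 7 exons, held 55 of 61 full-splice reads in replicate 1 and 45 of 54 in replicate 2 (86.7% ± 4.83). In 9 of 76 Srm reads in replicate 1 and 6 of 63 in replicate 2 (10.7% ± 1.64), the transcript went on past the Srm end and was spliced into Masp2, the gene of a complement serine protease 7560 bases downstream. All 15 reads used 1 unannotated intron of 7658 bases, 148595010 to 148602667 on chromosome 4, which ends at an annotated acceptor of Masp2-201 and Masp2-202. Of the joined reads, 5 and 5 began in the first Srm exon, and 9 and 5 ended at 148604417, the end of Masp2-202.

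The annotated Srm stop codon lies ahead of the joining intron. The reading frame was followed for 1 joined chain, with 1 read in replicate 1 and 2 in replicate 2, and it kept the 302 codons. The other joined chains were not followed, because each had fewer than 3 reads or lacked the annotated start codon. Masp2 itself had 0 reads in replicate 1 and 4 in replicate 2, none of them spliced.

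**Figure D4:**
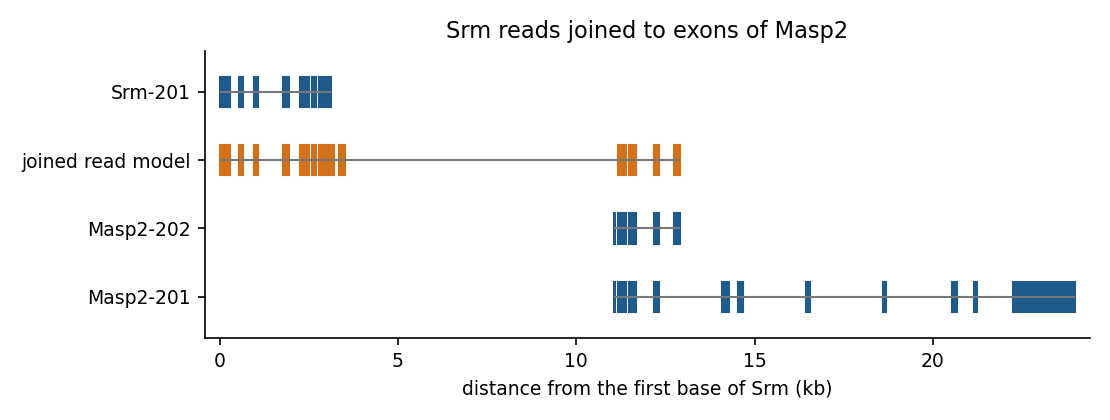
Exons (boxes) of Srm-201, of the joined read model with most reads (3 reads, 12 exons), and of Masp2-202 and Masp2-201, against distance from the first base of Srm (horizontal axis, kb). The joined model runs from the Srm exons over an intron of 7658 bases to the last 4 exons of Masp2-202.

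The share of full-splice reads differed among the genes. Full-splice reads made up 98.7% ± 0.0870 of Oaz1 reads and 96.0% ± 0.173 of Oaz2 reads, against 77.2% ± 0.359 over all annotated genes. Azin2 was lowest at 72.6% ± 12.3, with 13 of 36 reads in replicate 1 and 5 of 32 in replicate 2 deposited as incomplete. Incomplete did not always mean cut short at the 5′ end. The 96-base first intron of Azin2 was retained in 3 and 4 full-splice reads, but in 13 and 7 with incomplete models counted. Genomic models, which match no splicing pattern, took 16.6% ± 4.09 of Azin1 reads, and all 7 and 8 of these reads lay in a model only 4 bases long. The Oaz2 genomic class held the unspliced reads past its 3′ end.

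**Figure D5:**
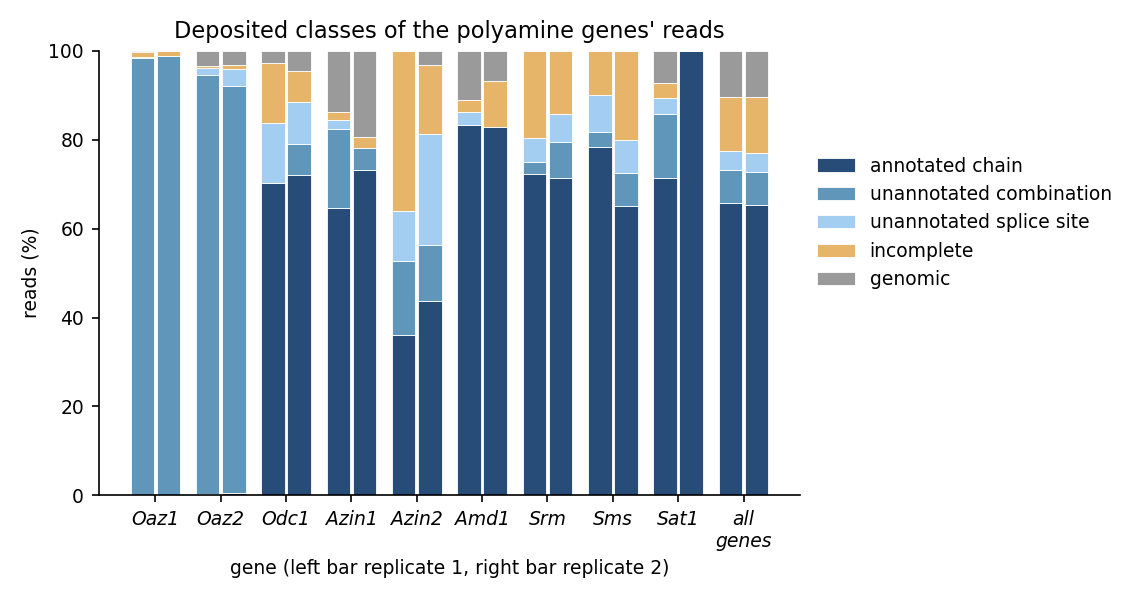
Share of each gene's reads (vertical axis, percent) in the deposited classes, with replicate 1 as the left bar and replicate 2 as the right bar, and all annotated genes at the right. Oaz1 and Oaz2 are almost wholly in the unannotated combination, and the other genes mostly in the annotated class, except Azin2.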

How the data were processed

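The 2 libraries form 1 group. The deposited tables hold read counts per transcript model, with no normalization, and other deposited values give each model's exon number and length. Per the file headers the models come from TALON, and per the deposited text files they rest on mm10 alignments with GENCODE M21. The aligner is not stated in the sources used here. Members were found by gene symbol, and their counts were summed over all models. CPM is per 1000000 reads not on spike-ins. Models were joined across libraries by intron chain. Full-splice reads are those of the annotated, unannotated combination and unannotated splice site classes. Chains were compared with GENCODE M21 with gaps kept and with gaps under 30 bases closed. Reading frames were walked over M21 transcript sequences to the first TAA, TAG or TGA. Near copies, overlapping genes and markers were read from the same tables.

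The library test took genes with at least 20 reads together, and the isoform test took genes with 20 or more full-splice reads in both. Intervals are exact 95% Clopper-Pearson intervals, and a count of 0 was given a limit of 3 counts. Log2 ratios had 0.5 added to each count. The text names all 9 members, up to 5 chains each with at least 5% of full-splice reads in either library and at least 3 reads, the 4 highest pathway genes and those with no read, of which some are not reported here. Members and lists were chosen with earlier results of these data known.

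On simulated counts for the library comparison of 9029 genes, the test recovered 22.4% of the 2-fold changes, 70.2% of the 3-fold, 82.0% of the 4-fold and 100% of the 8-fold ones, and called 3 unchanged genes. For isoform shares moved by 30 points among 4612 genes it called 57.0% of 200, with 2 unchanged genes called. Both simulations held counting error only, so they do not show how the tests behave under other variation between libraries. Their rates pool genes of all depths above the read minimum and are not rates for the members. Python 3.11.15 with pandas 2.3.3, numpy 2.4.6, scipy 1.17.1 and matplotlib 3.10.9, and R 4.3.3 with edgeR 4.0.16 and DESeq2 1.42.0 for scaling factors, were used.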

Additional observations from a re-analysis of the deposited data

Results flagged for a closer look

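Reads outside the members' own counts exceeded the 3 counts that a count of 0 allows in several places. Unannotated reads on the opposite strand of Azin1 numbered 11 in replicate 1 and 10 in replicate 2. Over Azin2 there were 7 and 13, over Sms 15 and 12, and over Sat1 7 and 5. Upstream of Srm, 22 reads of 1 unspliced model lay on the opposite strand and met the gene at its first base, in replicate 1 only. Among near copies, the pseudogene Oaz1-ps had 4 and 4 reads, and Amd-ps3 had 7 in replicate 2 beside 1 in replicate 1. None of these reads entered a member's count, and their source was not tested.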

How the results depend on the processing

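No alternative changed a call among the 9 genes. The library difference of Azin2 turned with full-splice models alone (23 and 26 reads), which left 7 of 9 genes higher in replicate 1, against 8 with all models. The library test called 0 of them under each read minimum, fold and scaling tried, and the isoform test called 0 under each minimum and with gaps closed. Over the whole table the library test called 28 genes, against 52 at any fold and 14 with full-splice models alone. Counting full-splice models alone raised the median level of the 9 genes from 58.3 to 72.6 CPM, and that of Oaz1 from 763 to 1151 CPM, since the total then held fewer reads. It put Amd1 above Azin2, and leaving out genomic models put Odc1 above Azin1, while the first 3 places stayed. The median leading share was 84.3%, against 78.5% with incomplete models included and 91.1% with splice sites within 10 bases taken as the same. The median full-splice share rose from 85.9% to 96.6% over multi-exon models alone. These medians over the 9 genes were taken in each library and then averaged. Leaving out 1 replicate gave a median level of 55.0 to 61.7 CPM, a leading share of 83.3% to 85.2%, a full-splice share of 85.7% to 86.1% and antizyme reads without a gap of 100%. Of 112 values under other settings, replicates left out not counted, 38 moved. A level or share was taken as moved when it changed by more than the spread between libraries. Counts of called genes have no such spread and were judged by their ratio to the main count. Below Oaz2 each gene has at most 76 reads per library, which limits the shares of minor forms. No paired analysis was possible because there is 1 group.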

Other observations

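Further genes of the pathway ranged in level from below Sat1, the lowest member, to above Srm. Smox, which oxidises spermine back to spermidine, had 58 and 51 reads (69.3 ± 1.24 CPM), more than Sat1 in both libraries, while Paox, the oxidase of acetylated polyamines, had 4 and 5 reads. For hypusine, Dhps and Dohh had 37 and 19, and 53 and 58 reads. Slc3a2, a subunit of amino acid transporters also tied to polyamine export, stood at 145 ± 6.05 CPM. Of the methionine salvage genes, Enoph1 had 40 and 41 reads, Apip 21 and 11, Mri1 10 and 17, Adi1 13 and 15, and Mtap 11 and 5. None of these passed the library test, for which Paox and Mtap had too few reads. All were named after their values were seen.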
